A study of Mus musculus with 24 samples.

Results

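The *Hox* genes of the sorted cultures were taken as every entry of the deposited expression table whose symbol names a gene of the *Hoxa*, *Hoxb*, *Hoxc* or *Hoxd* cluster followed by its paralog number. This gave 34 of 22889 entries, of which 10 belong to *Hoxa*, 10 to *Hoxb*, 7 to *Hoxc* and 7 to *Hoxd*. The members were chosen by name, not by level. In GRCm38 coordinates of GENCODE M21, the *Hoxa* members from *Hoxa2* onwards lie on chromosome 6 from 52162417 to 52260880 (minus strand), the *Hoxb* members on chromosome 11 from 96194316 to 96368256, the *Hoxc* members on chromosome 15 from 102921103 to 103036852 and the *Hoxd* members on chromosome 2 from 74668310 to 74765142 (plus strand for these 3).

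*Hox* genes encode homeodomain transcription factors that set positional identity along the head-to-tail axis. Within a cluster, the genes with low paralog numbers are active from the hindbrain backwards. Higher numbers broadly start further towards the tail, though not in strict order among the lowest numbers. The midbrain, where the oculomotor nucleus lies, forms ahead of the *Hox* domains. Retinoic acid switches on the low-numbered end of the clusters first, and in the spinal cord the *Hox* code divides motor neurons into columns and pools, for which Hox proteins bind DNA together with Pbx and Meis cofactors.

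Oculomotor neurons were derived from an *Islet1*-GFP mouse embryonic stem cell line that also carried a *Phox2a* transgene under the *nestin* enhancer (*Islet1*-GFP/*NesEPhox2a*). Their embryoid bodies received 250 nM SAG, a Smoothened agonist, with 100 ng/ml Fgf8. Spinal motor neurons were derived from an *Hb9*-GFP line in the presence of 500 nM SAG and 100 nM retinoic acid. Patterning lasted 5 days in both, after which GFP-positive and GFP-negative fractions were separated by FACS and sequenced in bulk with SMART-seq2, giving 4 groups of 6 samples. The line, the reporter, the transgene and the patterning factors all differed between the cultures, so their parts in any difference between the cultures cannot be told apart. The labels do not say whether replicates were separate cultures, and p values therefore measure the spread between these samples, which may be technical. In bulk samples, fewer cells expressing a gene and less RNA per cell cannot be told apart.

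Expression was given as RPKM, the reads of a gene scaled to the length of its gene model and to the reads mapped in the sample, so that levels could be compared between genes. The depth estimated from the steps of the values ran from 748300 to 7608152 reads per sample, and 1 read of a 2 kb gene model was worth between 0.0657 and 0.668 RPKM, so levels below about 1 RPKM rested on few reads. The markers went with the labels in most samples. The oculomotor marker *Tbx20* was higher in every oculomotor than in any spinal GFP-positive sample, and *Mnx1* was higher in every spinal one. The oculomotor marker *Phox2a* was higher in most oculomotor samples but overlapped. It was at 8.59 RPKM in spinal GFP-positive 1, above 6.08 and 5.83 RPKM in oculomotor GFP-positive 5 and 6. The pair labelled spinal 4 went against its labels in part. *Mnx1*, which encodes HB9, reached 69.4 RPKM in the sample labelled spinal GFP-negative 4, where the remaining 5 of its group held 0.189 to 4.72 RPKM. *Isl1* was at 7.63 RPKM in the sample labelled spinal GFP-positive 4 and at 50.4 to 123 RPKM in the remaining 5 of that group. In the same pair *Mnx1* was at 43.1 RPKM in the GFP-positive sample, above the remaining GFP-negative samples, and *Isl1* was at 8.56 RPKM in the GFP-negative sample, within the 0.392 to 9.10 RPKM of its group. In addition, 3 gene models held 68.8% of the summed RPKM of spinal GFP-negative 2. They held 17.8% in spinal GFP-positive 2 and 5.44% in spinal GFP-negative 6. Such shares can lower the RPKM of the other genes in these samples. The counts of called and of non-overlapping *Hox* genes between the cultures are given with and without both spinal samples of number 4. For the GFP-negative fractions they are also given with spinal GFP-negative 2 left out as well.

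The 250 bases ahead of the annotated start are shown for 5 members, taken from the RefSeq promoter table on GRCm38.p6 and written 5′ to 3′ along the strand of the gene. *Hoxb4*, *Hoxd4* and *Hoxa5* are paralogs 4 and 5, the numbers whose levels differed most between the cultures, *Hoxb8* is a higher-numbered member, and *Hoxa2* is a low-numbered member measured in every sample of both cultures. Capitals mark AGGTCA, the half-site of retinoic acid receptors, TTTATG, a core motif of the Cdx factors, and TGATNNAT, a core motif bound by Pbx and Hox proteins together, on either strand. A match on the opposite strand reads TGACCT for the receptor motif, CATAAA for the Cdx motif and ATNNATCA for the motif of Pbx and Hox.
Hoxb4, chr11:96318017-96318266, plus strand: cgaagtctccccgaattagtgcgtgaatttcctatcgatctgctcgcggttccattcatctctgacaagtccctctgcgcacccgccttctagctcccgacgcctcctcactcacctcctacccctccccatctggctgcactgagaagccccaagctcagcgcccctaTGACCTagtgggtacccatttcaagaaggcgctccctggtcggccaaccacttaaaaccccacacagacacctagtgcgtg
Hoxd4, chr2:74721728-74721977, plus strand: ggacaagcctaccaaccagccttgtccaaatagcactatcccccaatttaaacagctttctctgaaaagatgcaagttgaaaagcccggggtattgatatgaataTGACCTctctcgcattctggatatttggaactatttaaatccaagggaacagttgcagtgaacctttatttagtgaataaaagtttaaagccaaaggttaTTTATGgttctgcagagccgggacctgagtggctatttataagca
Hoxa5, chr6:52204588-52204837, minus strand: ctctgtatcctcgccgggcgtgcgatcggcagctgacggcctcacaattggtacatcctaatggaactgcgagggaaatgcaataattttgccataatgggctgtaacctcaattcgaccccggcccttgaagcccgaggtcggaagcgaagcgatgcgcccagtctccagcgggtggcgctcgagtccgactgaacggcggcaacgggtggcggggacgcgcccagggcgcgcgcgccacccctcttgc
Hoxb8, chr11:96281655-96281904, plus strand: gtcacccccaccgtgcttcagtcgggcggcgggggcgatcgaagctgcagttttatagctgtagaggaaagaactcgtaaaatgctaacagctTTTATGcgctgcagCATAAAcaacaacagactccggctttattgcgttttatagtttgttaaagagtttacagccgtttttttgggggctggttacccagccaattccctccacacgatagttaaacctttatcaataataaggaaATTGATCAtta
Hoxa2, chr6:52164832-52165081, minus strand: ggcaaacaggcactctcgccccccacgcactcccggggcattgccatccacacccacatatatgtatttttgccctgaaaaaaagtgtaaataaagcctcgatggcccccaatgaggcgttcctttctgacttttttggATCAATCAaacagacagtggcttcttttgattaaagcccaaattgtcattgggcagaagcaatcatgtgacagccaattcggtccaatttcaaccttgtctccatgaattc

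None of these windows overlapped an annotated exon, and the *Hoxd4* window lay in an intron of longer *Hoxd4* transcripts. *Hoxb4* held AGGTCA on the opposite strand, beginning 81 bases before the start, and *Hoxd4* held it on the opposite strand 145 bases before the start, with TTTATG 45 bases before the start. *Hoxb8* held TTTATG at 157 and 143 bases and TGATNNAT at 11 bases before the start, *Hoxa2* held TGATNNAT at 111 bases, and *Hoxa5* held none of the 3 motifs. Of the 34 members, 19 had an entry in the table, with 21 windows between them. AGGTCA was in 5 of these windows, TTTATG in 5 and TGATNNAT in 4, while 14%, 10.8% and 7.66% of 32536 windows of all genes held them. The *Hoxd3* window, not shown since it overlaps an exon, held AGGTCA and TTTATG as overlapping matches at 161 and 165 bases. A match describes the letters only and is neither a binding site nor a cause.

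The oculomotor samples held mainly low-numbered *Hox* transcripts at low levels, whereas paralogs 4 and 5 were the largest band in every spinal sample. Summed over the 34 genes, the oculomotor GFP-positive samples ran from 6.30 to 104 RPKM (median 35.0) and the spinal GFP-positive samples from 140 to 982 RPKM (median 512). The GFP-negative samples ran from 2.72 to 47.8 RPKM (median 10.5) in oculomotor and from 109 to 530 RPKM (median 164) in spinal cultures. The sums did not overlap between the cultures in either fraction. Between 2 and 14 members reached 1 RPKM in an oculomotor GFP-positive sample (median 6.5), against 14 to 20 in a spinal one (median 15.5).

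**Figure D1:**
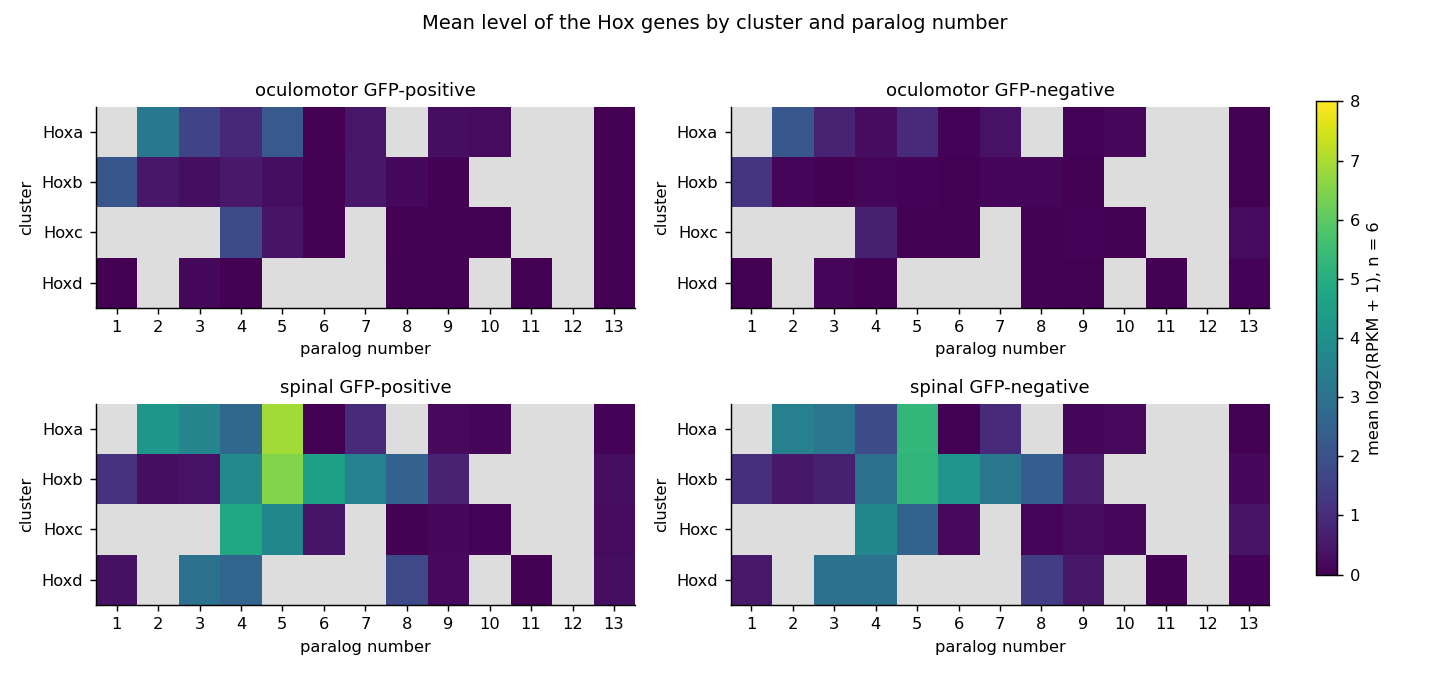
Mean level of the *Hox* genes in the 4 groups, as log2(RPKM + 1) over 6 samples, by cluster (vertical axis) and paralog number (horizontal axis). Grey squares have no value shown. In the spinal panels the brightest squares are *Hoxa5* and *Hoxb5*, while in the oculomotor GFP-positive panel the brightest is *Hoxa2*.

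The make-up of the sum differed as well. Paralogs 1 to 3 held 52.4% to 87.8% of the *Hox* sum in oculomotor GFP-positive samples (median 57.7%) and 7.81% to 38.6% in spinal GFP-positive samples (median 13.9%). Paralogs 4 and 5 held 47.2% to 81.9% in spinal GFP-positive samples (median 73.2%) against 10.8% to 46.3% in oculomotor ones (median 36.3%). Neither of these shares overlapped between the cultures. Paralogs 6 to 8 held 5.99% to 21.6% in spinal GFP-positive samples, and at most 7.18% in oculomotor ones. Paralogs 9 to 13, which in the embryo mark the thoracic and more caudal cord, held at most 4.13% and 3.12% in the GFP-positive samples of the oculomotor and spinal cultures.

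By cluster, *Hoxa* genes made up 52.3% to 84.8% of the *Hox* sum in oculomotor GFP-positive samples (median 60.4%) and 27.3% to 68.0% in spinal ones (median 41.4%). *Hoxb* genes made up 7.85% to 35.0% in oculomotor and 23.5% to 52.1% in spinal GFP-positive samples. *Hoxd* genes made up at most 2.90% in the oculomotor and between 1.68% and 8.72% in the spinal samples. These cluster shares overlapped between the cultures, as did the shares of paralogs 6 to 8 and 9 to 13. Within the spinal group, *Hoxa* made up 65.2% and 68.0% in GFP-positive 5 and 6, the most deeply sequenced samples, and 27.3% to 44.3% in samples 1 to 4.

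**Figure D2:**
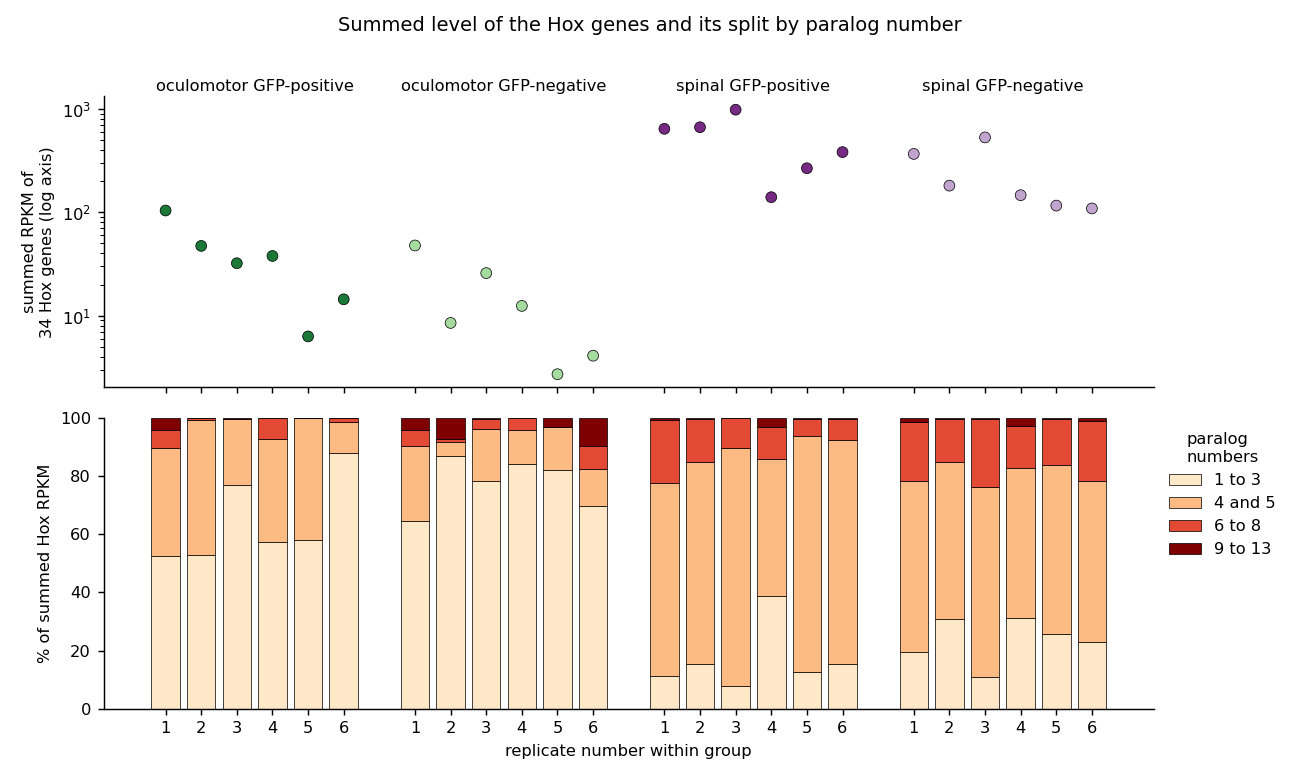
Upper panel, summed RPKM of the 34 *Hox* genes in each sample on a log axis. Lower panel, the percentage of that sum held by paralogs 1 to 3, 4 and 5, 6 to 8 and 9 to 13. Each column is 1 sample. Paralogs 1 to 3 fill at least 52.4% of every oculomotor GFP-positive column and at most 38.6% of every spinal GFP-positive column.

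The first comparison asked how the *Hox* genes of sorted oculomotor neurons differed from those of sorted spinal motor neurons. In the GFP-positive fractions, 6 of the 31 members tested were higher in spinal motor neurons at an adjusted p under 0.05 (limma on log2(RPKM + 1), Benjamini-Hochberg over all genes tested), namely *Hoxa5*, *Hoxb4*, *Hoxb5*, *Hoxb6*, *Hoxc5* and *Hoxd3*. Of the 19240 genes tested, 0.603% were called in either direction and 0.249% were higher in spinal samples. No member was called higher in oculomotor neurons, where 0.353% of all genes were, neither here nor in the 23 alternative analyses, and 0 were higher there at an unadjusted p under 0.05. A further 10 members were higher in spinal motor neurons at an unadjusted p under 0.05 only. The other 3 members (*Hoxa6*, *Hoxc10* and *Hoxd11*) were above 0 in fewer than 2 of these samples and could not be tested.

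The groups did not overlap for 9 members, all with the spinal samples above, against 0.696% of the genes tested. These included *Hoxb4*, *Hoxb5*, *Hoxb6*, *Hoxb9*, *Hoxc4*, *Hoxc5*, *Hoxd3* and *Hoxd4*. With both spinal samples of number 4 left out, 12 members did not overlap, against 1.07% of the genes tested, and 7 members were called: *Hoxb4* was no longer called, and *Hoxb7* and *Hoxd8* were. The number of all genes called was 116 over all samples and ran from 13 to 342 over the alternatives. The 7 calls were not set against the share of all genes called in their own fit. The 6 calls over all samples were spread over the clusters, with 1 of 9 tested *Hoxa*, 3 of 10 *Hoxb*, 1 of 6 *Hoxc* and 1 of 6 *Hoxd* genes. By paralog number they were 1 of 8 for numbers 1 to 3, 4 of 7 for numbers 4 and 5, 1 of 7 for numbers 6 to 8 and 0 of 9 for numbers 9 to 13. The median log2 difference, spinal minus oculomotor, was 0.69, 3.20, 1.71 and 0.20 in these bands, beside 0.04 over all genes tested. These medians depend on the offset of 1 RPKM for members listed at 0 in oculomotor samples, and whether the bands differed from each other was not tested. Within samples 1 to 4 and within the deeper samples 5 and 6, the differences of the called members with an oculomotor level above 0 were 3.65 and 6.71 for *Hoxa5*, 3.73 and 2.14 for *Hoxb4*, 3.49 and 2.80 for *Hoxc5* and 3.17 and 2.08 for *Hoxd3*, in the same direction throughout.

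**Figure D3:**
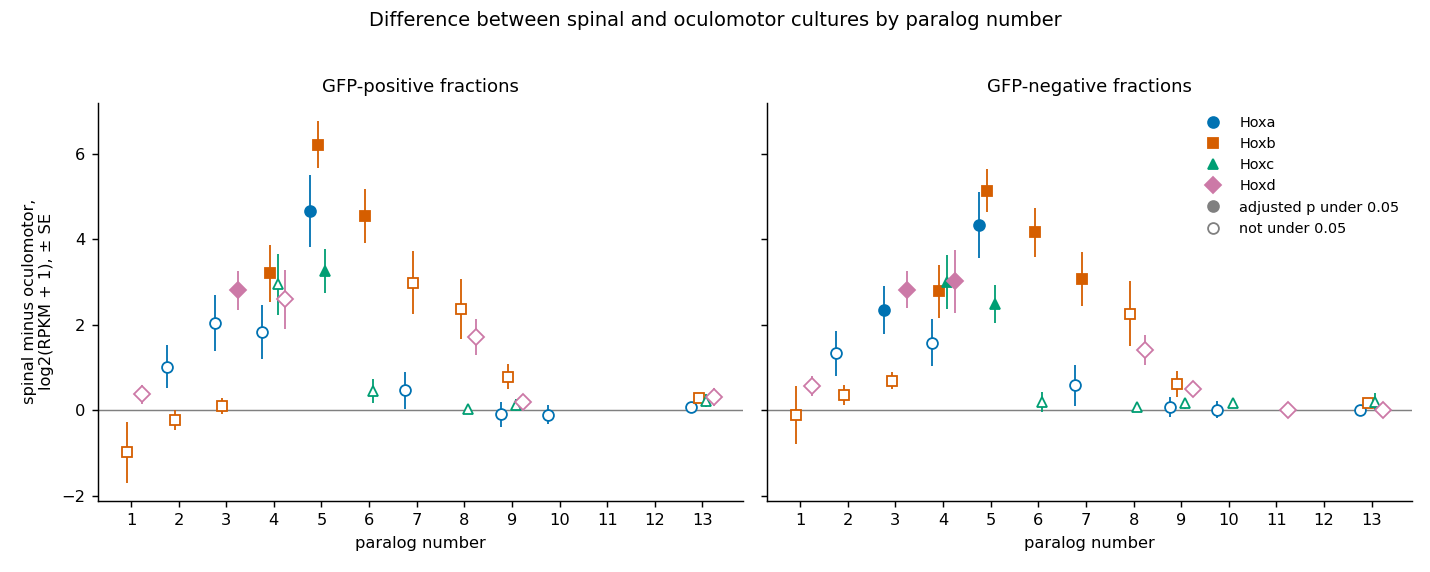
Difference between the cultures on the log2(RPKM + 1) scale, spinal minus oculomotor, with its SE, for the *Hox* genes by paralog number, in GFP-positive (left) and GFP-negative (right) samples. Filled symbols passed an adjusted p of 0.05. Both panels peak at paralog 5, with *Hoxb5* highest at 6.21 and 5.14. The size of the difference of members listed at 0 in every oculomotor sample, such as *Hoxd4*, depends on the offset of 1 RPKM.

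Among paralogs 1 to 3, which pattern the hindbrain, the *Hoxa* genes were measured in both cultures. *Hoxa2*, which sets the identity of the second branchial arch and hindbrain segments, was above 0 in every sample. It ran from 2.20 to 28.4 RPKM (median 8.53) in oculomotor and from 6.20 to 31.2 RPKM (median 22.2) in spinal GFP-positive samples, ranges that largely overlapped (log2 difference 1.01, SE 0.50, adjusted p = 0.531). *Hoxa3* ran from 0.12 to 10.9 RPKM (median 1.60) in oculomotor and from 4.34 to 27.4 RPKM (median 12.3) in spinal GFP-positive samples (log2 difference 2.04, SE 0.66, adjusted p = 0.252). The highest *Hoxa2* and *Hoxa3* levels of the oculomotor neurons were both in sample 1.

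*Hoxb1*, a marker of the fourth hindbrain segment, was at 0.607 to 7.58 RPKM (median 3.94) in oculomotor GFP-positive samples and at 0 to 12.9 RPKM (median 0.237) in spinal ones. The highest spinal level was in the sample labelled GFP-positive 4 and the groups overlapped (log2 difference -0.98, spinal minus oculomotor, SE 0.71, adjusted p = 0.670). It was the highest of all *Hox* genes in oculomotor GFP-positive 3, at 7.58 RPKM. *Hoxb2* and *Hoxb3* stayed at or below 1.61 RPKM in GFP-positive samples. *Hoxd3* was the only member of paralogs 1 to 3 called in this comparison: it was at or below 0.933 RPKM in oculomotor and at 1.58 to 22.7 RPKM (median 6.98) in spinal GFP-positive samples, without overlap (log2 difference 2.80, SE 0.46, adjusted p = 0.0134). The exons of *Hoxd3* and *Hoxd4* overlap on the same strand, so that their reads may have been divided between them.

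Paralogs 4 and 5, whose domains reach from the hindbrain border into the cervical cord, differed most. *Hoxa5* helps to specify cervical and brachial levels and, with *Hoxc5*, phrenic motor neurons. It was measured at 105, 176, 251, 21.8, 134 and 195 RPKM in spinal GFP-positive samples 1 to 6, and at 28.8, 14.5, 0.208, 6.78, 0.751 and 0.386 RPKM in the oculomotor ones. Oculomotor GFP-positive 1 was above the sample labelled spinal GFP-positive 4, and the other samples did not overlap. The log2 difference was 4.67 (SE 0.84, adjusted p = 0.0218). The call was lost when oculomotor GFP-positive 3, 5 or 6 or spinal GFP-positive 5 or 6 was left out, and over all samples left out in turn the adjusted p ran from 0.00896 to 0.0567.

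*Hoxb5* gave the widest gap of all members. Its spinal GFP-positive levels were 173, 183, 265, 20.1, 54.0 and 58.8 RPKM, whereas the oculomotor ones were 0.387 and 1.54 RPKM in samples 1 and 3 and 0 in the other 4. The log2 difference was 6.21 (SE 0.56, adjusted p = 0.000196), and it was 6.40 within samples 1 to 4 and 5.84 within samples 5 and 6. The call was kept in all 23 alternative analyses. *Hoxb4* was at 24.8, 39.0, 40.3, 6.18, 3.13 and 3.71 RPKM in spinal and at 0 to 2.76 RPKM in oculomotor GFP-positive samples (log2 difference 3.20, SE 0.66, adjusted p = 0.0478). Its groups were close, with 2.76 RPKM in oculomotor GFP-positive 4 and 3.13 RPKM in spinal GFP-positive 5, and the call was lost in 9 of 12 analyses with 1 sample left out (adjusted p from 0.0357 to 0.123).

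*Hoxc4* was at 88.1, 35.3, 158, 6.78, 6.68 and 14.1 RPKM in spinal GFP-positive samples and at 0.789 to 5.02 RPKM (median 3.54) in oculomotor ones. The groups did not overlap, yet the adjusted p was 0.106 (log2 difference 2.94, SE 0.72). With *Hoxa5* (median 3.77 RPKM), it had the highest levels of this band in oculomotor neurons. *Hoxc5* was at 4.31 to 48.1 RPKM (median 8.70) in spinal and at 0 to 1.88 RPKM in oculomotor GFP-positive samples, with no overlap (log2 difference 3.26, SE 0.52, adjusted p = 0.0100). *Hoxd4* was listed at 0 in all 12 oculomotor samples and was at 7.14, 23.0, 28.0, 0.521, 1.17 and 1.59 RPKM in spinal GFP-positive samples (adjusted p = 0.140). *Hoxa4* ran from 0 to 3.41 RPKM in oculomotor and from 0.270 to 13.4 RPKM in spinal GFP-positive samples and overlapped (adjusted p = 0.300).

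**Figure D4:**
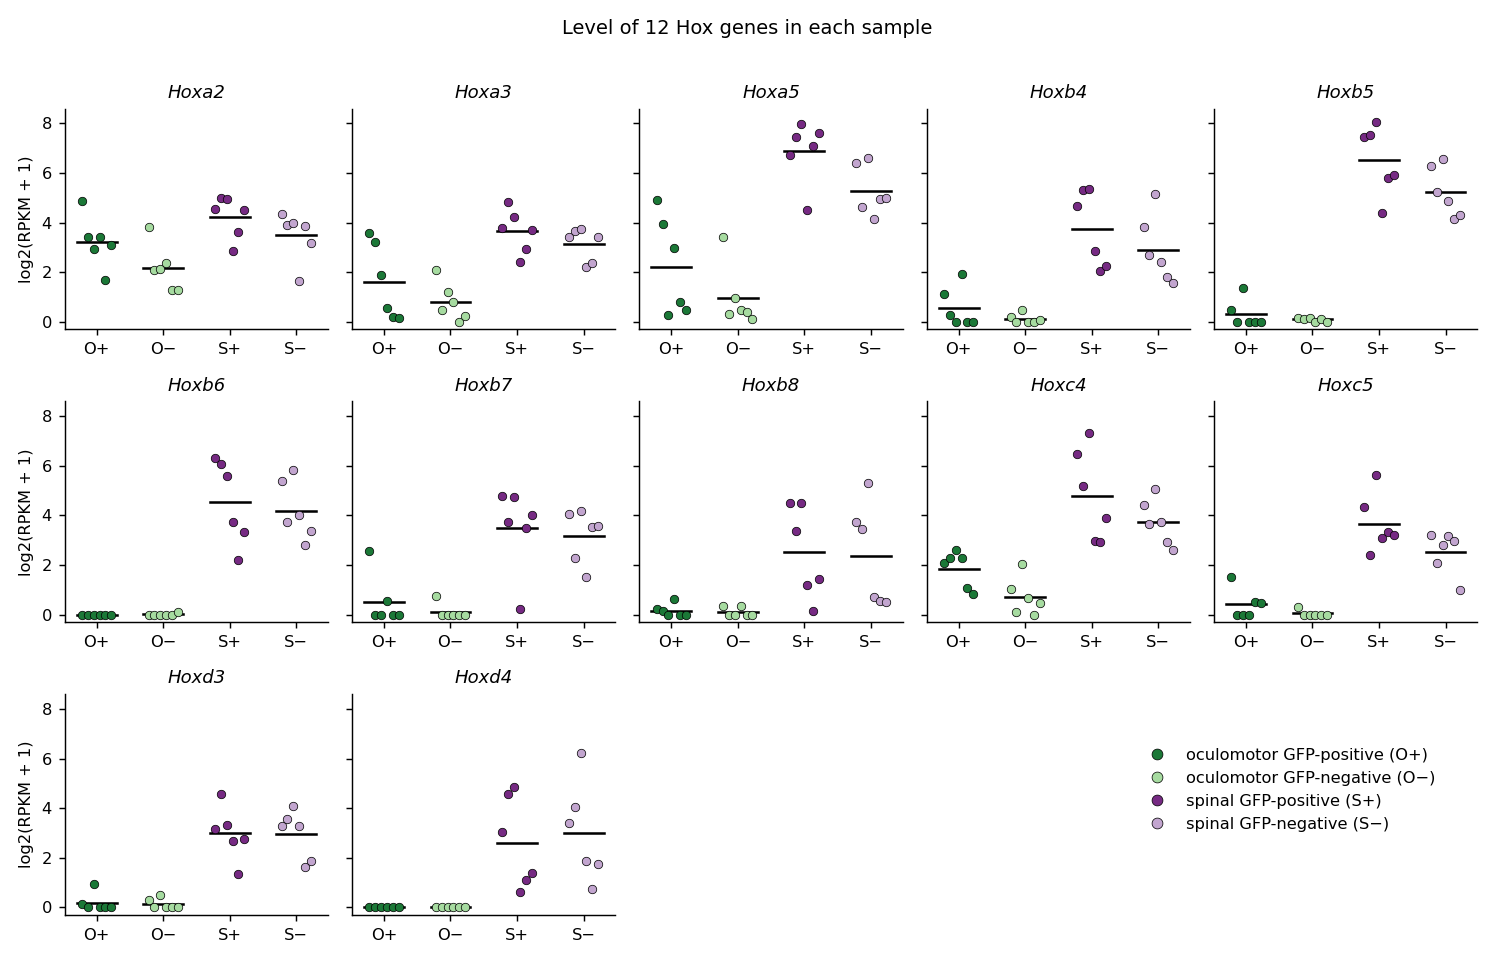
Level of the 12 *Hox* genes described by sample, as log2(RPKM + 1) on the vertical axis. Each point is 1 sample and each bar the mean of 6. O+ and O− are the GFP-positive and GFP-negative oculomotor samples, S+ and S− the spinal ones. *Hoxb5* and *Hoxb6* lie at or near 0 in oculomotor samples, whereas *Hoxa2* is present in both cultures.

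Paralogs 6 to 8 mark brachial and upper thoracic levels, and among them the *Hoxb* genes had the highest levels. *Hoxb6* was listed at 0 in all 6 oculomotor GFP-positive samples and was at 79.2, 66.1, 47.7, 12.3, 3.66 and 9.02 RPKM in spinal ones (adjusted p = 0.00391). *Hoxb7* was at 26.3, 12.3, 25.8, 0.166, 10.4 and 15.4 RPKM in spinal GFP-positive samples. Oculomotor GFP-positive 1 and 4 held 4.88 and 0.458 RPKM of it and the other 4 were at 0. Its low spinal value was in the sample labelled GFP-positive 4. The adjusted p was 0.110 with that sample (log2 difference 2.98, SE 0.74) and 0.00506 without it. *Hoxb8* was at 21.7, 9.30, 21.9, 1.26, 0.105 and 1.68 RPKM in spinal and at or below 0.537 RPKM in oculomotor GFP-positive samples (log2 difference 2.36, SE 0.70, adjusted p = 0.203). The *Hoxa* and *Hoxc* genes of the same numbers were far lower: *Hoxa6* was listed at 0 in all spinal samples, *Hoxa7* reached 4.84 RPKM, *Hoxc6* 2.96 RPKM and *Hoxc8* 0.184 RPKM in spinal GFP-positive samples. *Hoxd8* ran from 0.187 to 10.5 RPKM (median 2.00) there and reached 0.211 RPKM in oculomotor neurons (adjusted p = 0.106).

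Of the 11 members with paralog numbers 9 to 13, 7 were listed at 0 in every oculomotor GFP-positive sample. *Hoxb9*, which marks thoracic levels, was the highest of them in spinal GFP-positive samples at 0.107 to 3.47 RPKM (median 0.432). It was listed at 0 in all 12 oculomotor samples (adjusted p = 0.345 for the GFP-positive fractions). In oculomotor neurons the band was nearly confined to *Hoxa9* at 2.55 RPKM and *Hoxa10* at 1.65 RPKM in sample 1. No member of the band was called, and levels of this size rested on few reads in the shallower samples.

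The GFP-negative fractions, which hold the remaining cells of each culture, were compared next. Here 10 of the 33 members tested were called, and all 10 were higher in spinal samples, against 0.96% of 22179 genes called in either direction and 0.55% higher in spinal samples. They were *Hoxa3*, *Hoxa5*, *Hoxb4*, *Hoxb5*, *Hoxb6*, *Hoxb7*, *Hoxc4*, *Hoxc5*, *Hoxd3* and *Hoxd4*. No member was called higher in oculomotor samples, where 0.41% of all genes were, neither here nor in the 36 alternatives, and 0 were higher there at an unadjusted p under 0.05. By paralog number the calls were 2 of 8 for numbers 1 to 3, 6 of 7 for numbers 4 and 5, 2 of 7 for numbers 6 to 8 and 0 of 11 for numbers 9 to 13, with median log2 differences of 1.01, 3.01, 1.41 and 0.16, beside 0.04 over all genes. By cluster they were 2 of 9 *Hoxa*, 4 of 10 *Hoxb*, 2 of 7 *Hoxc* and 2 of 7 *Hoxd* genes. The groups did not overlap for 12 members, with the spinal samples above in each, against 0.87% of the genes tested. With both spinal samples of number 4 left out 11 members were called. In the same samples 12 members did not overlap, as did 1.8% of the genes tested. With spinal GFP-negative 2 left out as well 12 members were called, and 13 did not overlap, as did 3.38% of the genes tested. These 2 shares are of genes without overlap and not of genes called. The number of all genes called was 213 over all samples and ran from 39 to 650 over the alternatives. The counts of 11 and 12 called members were not set against the shares of all genes called in their own fits. This comparison shared 1 fit of all 24 samples, and in that fit the GFP-positive comparison called 10 members in place of 6, so the counts do not show that the fractions differed. Within samples 1 to 4 and within samples 5 and 6, the log2 differences were 2.12 and 2.79 for *Hoxa3*, 4.16 and 4.70 for *Hoxa5*, 3.35 and 1.64 for *Hoxb4*, 5.62 and 4.17 for *Hoxb5*, 4.74 and 3.03 for *Hoxb6*, 2.82 and 3.56 for *Hoxb7*, 3.24 and 2.54 for *Hoxc4*, 2.75 and 1.98 for *Hoxc5* and 3.36 and 1.74 for *Hoxd3*.

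The 10 included all 6 members called between the GFP-positive fractions. *Hoxb5* was at 76.3, 36.7, 94.4, 28.1, 16.5 and 18.9 RPKM in spinal GFP-negative samples and at or below 0.125 RPKM in oculomotor ones (log2 difference 5.14, SE 0.50, adjusted p = 2.15e-06). *Hoxa5* was at 83.5, 23.9, 97.7, 16.5, 29.7 and 30.9 RPKM in spinal and at 9.73, 0.250, 0.93, 0.395, 0.331 and 0.0858 RPKM in oculomotor GFP-negative samples, without overlap (log2 difference 4.34, SE 0.77, adjusted p = 0.00446). *Hoxb6* was at 5.99 to 55.5 RPKM (median 13.8) in spinal GFP-negative samples and above 0 in only 1 oculomotor sample, at 0.0820 RPKM (log2 difference 4.17, SE 0.57, adjusted p = 0.00036). All 3 were called in at least 35 of 36 alternative analyses.

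Among the lower numbers, *Hoxa3* was at 3.64 to 12.4 RPKM (median 9.77) in spinal and 0 to 3.21 RPKM (median 0.565) in oculomotor GFP-negative samples (log2 difference 2.35, SE 0.57, adjusted p = 0.0461). *Hoxd3* was at 2.10 to 16.2 RPKM (median 8.85) and at or below 0.416 RPKM in the same groups (log2 difference 2.82, SE 0.44, adjusted p = 0.00144). *Hoxa2* overlapped, at 2.12 to 19.6 RPKM in spinal and 1.4 to 13 RPKM in oculomotor GFP-negative samples (adjusted p = 0.311). The *Hoxa3* call depended on single samples, being lost in 14 of 24 analyses with 1 sample left out (adjusted p from 0.0230 to 0.102).

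*Hoxb4*, *Hoxc4* and *Hoxc5* were again higher in spinal samples. *Hoxb4* was at 1.92 to 34.2 RPKM (median 4.92) in spinal and at or below 0.408 RPKM in oculomotor GFP-negative samples (log2 difference 2.78, SE 0.62, adjusted p = 0.0272). *Hoxc4* was at 5.10 to 32.1 RPKM (median 12.0) and 0 to 3.13 RPKM (median 0.477) in them (log2 difference 3.01, SE 0.63, adjusted p = 0.0178). *Hoxc5* was at 1.00 to 8.16 RPKM (median 6.39) and at or below 0.223 RPKM (log2 difference 2.49, SE 0.45, adjusted p = 0.0049). The first of these calls was lost in 6 of 24 analyses with 1 sample left out (adjusted p from 0.0185 to 0.0682), and the *Hoxc4* call only without oculomotor GFP-negative 2 (adjusted p = 0.0503).

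*Hoxb7* was at 1.83 to 17.2 RPKM (median 10.8) in spinal GFP-negative samples and above 0 in 1 oculomotor sample, at 0.669 RPKM (log2 difference 3.07, SE 0.63, adjusted p = 0.0148). *Hoxd4*, listed at 0 in the oculomotor samples, was at 9.57, 15.8, 74.8, 2.63, 0.673 and 2.39 RPKM in spinal ones, and its adjusted p of 0.0498 was lost in 19 of 24 analyses with 1 sample left out (0.0226 to 0.106). *Hoxb8* did not overlap between the groups, at 0.428 to 38.8 RPKM in spinal and at or below 0.281 RPKM in oculomotor GFP-negative samples, but was not called (log2 difference 2.26, SE 0.76, adjusted p = 0.200).

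Markers of other cells were read beside these results. The 3 pluripotency markers (*Pou5f1*, *Nanog* and *Zfp42*) summed to 49.2 to 203 RPKM (median 74.2) in oculomotor and to 1.41 to 290 RPKM (median 7.91) in spinal GFP-negative samples, and 0 of 3 were called by limma (2 at an unadjusted p under 0.05). The 6 mesoderm markers summed to 11.6 to 62.9 RPKM in oculomotor and 2.44 to 28.3 RPKM in spinal GFP-negative samples, and the 6 progenitor markers to 44.2 to 190 RPKM and 64.8 to 725 RPKM, with 0 called by limma (2 in each list at an unadjusted p under 0.05) and no marker at 0 throughout a group. Of 4 markers of midbrain and hindbrain territory, only *Otx2*, which marks midbrain and forebrain, was called between GFP-negative fractions, higher in oculomotor samples. It was called lower in oculomotor GFP-positive than GFP-negative cells. Between GFP-positive fractions 0 of the 4 were called, and their sums overlapped (2.25 to 6.01 RPKM in oculomotor and 0.972 to 7.66 RPKM in spinal samples). Of 4 endoderm markers, only *Sox17* was called between GFP-negative fractions, higher in spinal samples. In the GFP-positive fractions the progenitor markers summed to 15.0 to 69.9 RPKM in oculomotor and 29.5 to 165 RPKM in spinal samples, and the pluripotency markers to 0.315 to 6.57 RPKM and 0.257 to 238 RPKM, with 0 called in either list (4 and 2 at an unadjusted p under 0.05). The part of these cells in the *Hox* differences was not tested.

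Within a culture, the comparison of GFP-positive with GFP-negative cells asked whether *Hox* levels differed between motor neurons and the cells around them. In oculomotor cultures 0 of 33 members passed the limma threshold and 0 had an unadjusted p under 0.05, beside 6.15% of all 22179 genes called. Same-numbered fractions of a culture form pairs, and 1 member was called with each pair as a block. This was *Hoxa2*, higher in the GFP-positive sample of all 6 pairs (log2 difference 1.07, adjusted p = 0.285 without and 0.00604 with the block). The 6.15% belongs to the fit without pairs, and the number of all genes called ran from 476 to 3795 over the alternatives. The call of *Hoxa2* was therefore not set against the share of its own fit. *Hoxc4* was also higher in GFP-positive cells in 6 of 6 pairs (log2 difference 1.13, adjusted p = 0.376 without and 0.0501 with the block), and *Hoxa5* in 5 of 6 (1.28, adjusted p = 0.429 and 0.102).

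In spinal cultures 0 of 33 members passed the limma threshold, beside 1.23% of all genes, and 3 had an unadjusted p under 0.05, all higher in GFP-positive cells. These were *Hoxa5* (log2 difference 1.61, SE 0.77, adjusted p = 0.469, higher in 6 of 6 pairs), *Hoxb5* (1.29, SE 0.50, adjusted p = 0.314, higher in 5 of 6) and *Hoxc5* (1.13, SE 0.45, adjusted p = 0.326, higher in 5 of 6). With the pairs as blocks *Hoxb5* was called (adjusted p = 0.034), and without the sample labelled spinal GFP-positive 4, the pair in which it was lower in GFP-positive cells, its adjusted p was 0.0379 with no block. The 1.23% belongs to the fit of all samples without pairs, and the number of all genes called ran from 1 to 649 over the alternatives. *Hoxa5* was called within samples 5 and 6 alone, where it was at 134 and 195 RPKM in GFP-positive and 29.7 and 30.9 RPKM in GFP-negative cells. *Hoxd9* was called, as lower in GFP-positive cells, with spinal GFP-negative 2 and both samples of number 4 left out, at levels of at most 1.03 RPKM in the samples kept. *Hoxa3* and *Hoxb4* were higher in GFP-positive cells in 6 of 6 spinal pairs without being called (adjusted p = 0.841 and 0.709).

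**Figure D5:**
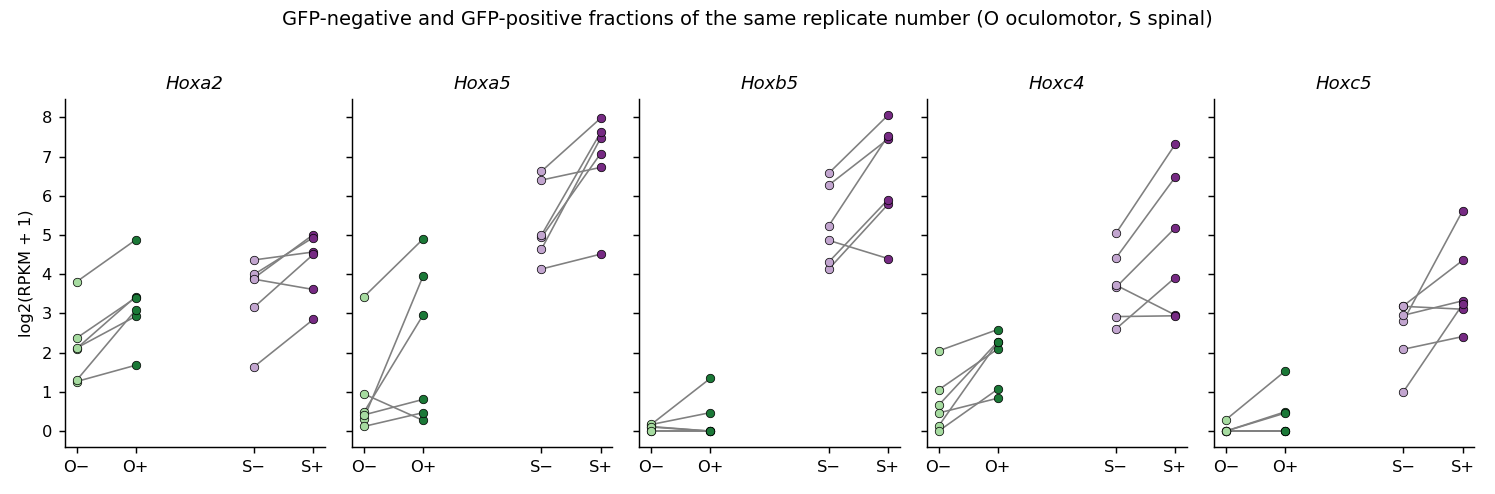
Levels of 5 *Hox* genes as log2(RPKM + 1) in GFP-negative (O−, S−) and GFP-positive (O+, S+) fractions, with lines joining fractions of the same culture and replicate number. The lines of *Hoxa2* and *Hoxc4* rise from O− to O+ in 6 of 6 oculomotor pairs and those of *Hoxa5* rise from S− to S+ in 6 of 6 spinal pairs.

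Whether the step between fractions differed between the cultures was tested as an interaction. No member passed the limma threshold, in this fit or in the 36 alternatives, beside 0.32% of all genes called, and 1 had an unadjusted p under 0.05. That member was *Hoxb3* (oculomotor step minus spinal step 0.60 on the log2 scale, SE 0.29, adjusted p = 0.692), whose levels were at most 2.19 RPKM. The interaction of *Hoxb5*, oculomotor step minus spinal step, was -1.08 (SE 0.71, adjusted p = 0.822), so a difference in its step was not detected.

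Some members were highest in the same spinal samples. In both fractions, numbers 1 to 3 held the 3 highest values of 6 of the 12 genes described by sample: *Hoxa2*, *Hoxb4*, *Hoxb5*, *Hoxb8*, *Hoxd3* and *Hoxd4*. For *Hoxa2* the margin was thin, with 13.97 RPKM in GFP-negative 2 and 13.7 RPKM in GFP-negative 5, and the other 6 genes did not have this order. Whether members varied together was not tested. *Hoxb8* shows the spread: GFP-positive samples 1 to 3 held 9.30 to 21.9 RPKM and GFP-negative samples 1 to 3 held 9.86 to 38.8 RPKM, whereas none of samples 4 to 6 exceeded 1.68 RPKM in either fraction. Among the others, *Hoxa5* had a GFP-positive level in sample 6 (195 RPKM) above those in samples 1 and 2. Accordingly, *Hoxb5* was the highest member in spinal GFP-positive 1 to 3 and *Hoxa5* in 5 and 6. Samples 5 and 6 were the deepest, at 4827066 to 7608152 reads over all groups against 748300 to 4627614 reads in samples 1 to 4. The paper names different sequencing platforms and read lengths, without saying which samples had which. The parts of depth and of the sequencing run in this spread were not tested.

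Genes in and around the clusters were followed from fixed lists. Of the 5 non-coding genes of the clusters in the table, 1 was higher in spinal GFP-positive samples and 3 were higher in spinal GFP-negative samples. *Hoxb5os*, antisense to *Hoxb5*, was listed at 0 in all 12 oculomotor samples and was at 3.58 to 53.8 RPKM in spinal GFP-positive and 1.70 to 85.9 RPKM in spinal GFP-negative samples (adjusted p = 0.0025 and 0.00267). *Hotairm1*, a non-coding gene of the *Hoxa* cluster, was at 3.97 to 37.4 RPKM in oculomotor and 40.3 to 121 RPKM in spinal GFP-positive samples, without overlap (log2 difference 2.10, SE 0.45, adjusted p = 0.0592), and was called in the GFP-negative fractions (2.91, SE 0.59, adjusted p = 0.0132). *Hoxaas3* was called in the GFP-negative fractions, at 2.28 to 5.94 RPKM in spinal and at most 0.835 RPKM in oculomotor samples (log2 difference 1.84, SE 0.36, adjusted p = 0.0107). Since the use of strand in counting was not stated, reads in exonic bases that these genes share with *Hox* genes cannot be told apart. For *Hoxb5* and *Hoxb5os* these were 100 of the 2786 exonic bases of *Hoxb5* in GENCODE M21. Of the 13 genes beside the clusters in the table, 0 passed the limma threshold between the cultures in either fraction, and 3 of 12 tested in GFP-positive and 2 of 13 tested in GFP-negative samples had an unadjusted p under 0.05.

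Among 12 activators of the clusters and retinoic acid genes in the table, 2 were called higher in spinal GFP-positive and 3 in spinal GFP-negative samples, and 0 were called lower. Of all genes tested, 0.249% and 0.55% were called higher in these samples. By limma, 5 of 11 tested in GFP-positive and 3 of 12 tested in GFP-negative samples had an unadjusted p under 0.05. *Rarb*, a retinoic acid receptor that retinoic acid itself induces, was at 0.179 to 1.92 RPKM in oculomotor and 8.77 to 45.5 RPKM in spinal GFP-positive samples (log2 difference 3.65, SE 0.43, adjusted p = 0.000788). In GFP-negative samples it was at 0.541 to 1.96 and 7.99 to 31.7 RPKM (2.85, SE 0.40, adjusted p = 0.000486). *Cyp26b1*, which degrades retinoic acid, was higher in both spinal fractions (log2 difference 3.89, SE 0.77, adjusted p = 0.038 in GFP-positive and 3.86, SE 0.75, adjusted p = 0.0107 in GFP-negative samples), though the GFP-positive call was lost in 9 of 12 analyses with 1 sample left out. *Cyp26a1*, of the same family, was at 1.4 to 10.9 RPKM in oculomotor and 28.8 to 176 RPKM in spinal GFP-negative samples (log2 difference 4.00, SE 0.56, adjusted p = 0.000485), and was lower in GFP-positive than in GFP-negative cells of both cultures (by 2.21, adjusted p = 0.0176, and by 4.4, adjusted p = 0.000267). With both spinal samples of number 4 left out, the calls between the cultures given here for *Rarb*, *Cyp26b1* and *Cyp26a1* were kept.

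Of the 9 TALE cofactors (*Pbx*, *Meis* and *Pknox* genes), 0 passed the limma threshold between the cultures in either fraction, and 3 in GFP-positive and 2 in GFP-negative samples had an unadjusted p under 0.05. Of the 12 Polycomb and trithorax genes 0 passed, and 3 and 1 had an unadjusted p under 0.05. Between fractions, *Meis3* was higher in oculomotor GFP-positive than GFP-negative cells (log2 difference 2.81, SE 0.78, adjusted p = 0.0297), and *Pbx3* was higher in spinal GFP-positive cells (1.95, SE 0.44, adjusted p = 0.023). In oculomotor cultures, *Gdf11*, a signal that shifts *Hox* expression towards caudal identities (2.10, SE 0.58, adjusted p = 0.0298), the histone demethylase gene *Kdm6b* (2.02, SE 0.57, adjusted p = 0.0351) and *Lnpk*, beside the *Hoxd* cluster (1.18, SE 0.35, adjusted p = 0.0433), were higher in GFP-positive cells. Beside these, 6.15% of all genes were called between oculomotor and 1.23% between spinal fractions. Each of these 5 calls was lost in 4 to 11 of 24 analyses with 1 sample left out.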

How the data were processed

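Poly(A) RNA of 24 samples was sequenced with SMART-seq2. The authors aligned reads to mm10 (GRCm38) using HISAT2 (2.0.3, per the submitters' processing notes) and obtained RPKM by means of rpkmforgenes. The deposited table holds those RPKM, without read counts. The gene annotation and the use of strand in counting are not given in the sources used here. The test of the study used read counts, which were not used here. The scale of comparison was log2(RPKM + 1), fitted by limma 3.58.1 under R 4.3.3 (moderated variances with a mean trend, two-sided, Benjamini-Hochberg over all genes tested, threshold 0.05), for genes above 0 RPKM in at least 2 fitted samples. The offset understates differences of low genes. The GFP-positive comparison used its 12 samples, and all others used 1 fit of 24 samples in 4 groups. That fit treated the fractions of a pair as independent samples, although their deviations correlated. The spread behind its GFP-negative p values therefore rests on less separate information than 24 samples would give. The fits were tested on simulated data. Tables and figures were made with Python 3.11.15, numpy 2.4.6, pandas 2.3.3 and matplotlib 3.10.9. Depth was estimated from the steps that single reads leave in the RPKM of 5896 genes, of which 96.1% to 97.9% of low values per sample lay within 2% of a whole read. Depth limits counting precision and the detection of low levels, and SMART-seq2 has no molecular identifiers. Fractions of 1 culture with the same number were treated as pairs, since their deviations from the group means correlated in 6 of 6 pairs of each culture (0.379 to 0.728 in oculomotor and 0.421 to 0.661 in spinal cultures, over 11952 genes). The pairs come from the numbers in the labels, and the pairing of fractions within a culture as blocks was added after the data were seen. Values by sample were given for members that passed the threshold in a comparison or had a group mean of at least 10 RPKM (13, of which 12 are described, since 1 member and 1 marker are not reported here), and other genes come from lists of which only those passing were to be described with values, apart from marker sums. The members and lists were chosen with earlier results of these data known. Gene overlaps come from GENCODE M21. Alternatives were other offsets, filters, scaling, blocks, subsets of samples, quality weights and each sample left out in turn.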

Additional observations from a re-analysis of the deposited data

Results flagged for a closer look

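In 12 of 49 groups of 6 samples checked over 13 *Hox* genes, 1 sample lay far from the other 5 on the log2(RPKM + 1) scale, its gap to the nearest of them passing Dixon's 95% critical share of the whole range. Chance alone marks about 1 in 20 groups of continuous values, a rate that does not hold for groups mostly at 0, and in 3 of the 12 the other 5 samples were all at 0. The sample labelled spinal GFP-positive 4 was low in *Hoxa5*, at 21.8 RPKM against 105 to 251 RPKM in the other 5, and in *Hoxb7*, at 0.166 RPKM against 10.4 to 26.3 RPKM. Oculomotor GFP-positive 1 was high in *Hoxb7*, at 4.88 RPKM against at most 0.458 RPKM, and in *Hoxc5*, at 1.88 RPKM against at most 0.405 RPKM. Oculomotor GFP-negative 1, which carries the same number, was high in *Hoxa5*, at 9.73 RPKM against at most 0.93 RPKM, in *Hoxb7*, at 0.669 RPKM with the others at 0, and in *Hoxc5*, at 0.223 RPKM with the others at 0. Oculomotor GFP-positive 3 was high in *Hoxb5*, at 1.54 RPKM against at most 0.387 RPKM, and in *Hoxd3*, at 0.933 RPKM against at most 0.103 RPKM. The remaining 3 were *Hoxb4* at 0.408 RPKM in oculomotor GFP-negative 3, *Hoxb6* at 0.082 RPKM in oculomotor GFP-negative 6 and *Hoxb8* at 0.537 RPKM in oculomotor GFP-positive 4, all below 1 RPKM.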

How the results depend on the processing

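Single genes were followed in 57 chosen pairs of a gene and a comparison. Of their 1792 values under alternatives 0 reversed, 1593 kept their direction and side of the threshold, 149 lost the call and 50 gained it. Pairs outside this choice did reverse in places. Between spinal fractions, *Hoxb6* (GFP-positive minus GFP-negative) was 0.36 over all samples and -0.31 within samples 5 and 6. Between GFP-positive fractions, the count of 6 called members became 2 in samples 1 to 4 alone (*Hoxb5* and *Hoxb6*), 2 in samples 5 and 6 alone (*Hoxa5* and *Hoxb5*), 10 with sample quality weights and 10 in the fit of all 24 samples, and lay between 4 and 7 with 1 sample left out. Between GFP-negative fractions, the count of 10 became 4 in samples 1 to 4 alone and 14 with sample quality weights, its lowest and highest, and lay between 6 and 11 with 1 sample left out, 6 being the count without oculomotor GFP-negative 2. Between spinal fractions the count of 0 became 1 in samples 5 and 6 alone, 1 without spinal GFP-negative 2 and both samples of number 4, and 0 to 1 with 1 sample left out, and between oculomotor fractions it was 0 whenever 1 sample was left out. The sets of samples alone are smaller, and for the other settings the cause was not tested. The counts of called members were not set against the share of all genes called in each setting. With the replicate number as a block across cultures, 4 members were called between GFP-positive and 12 between GFP-negative fractions, and with each pair within a culture as a block 1 was called in oculomotor and 1 in spinal cultures. The block left the other counts at 0. Same-numbered samples of different cultures had deviations correlated from -0.175 to 0.707, with numbers 5 and 6 at 0.572 to 0.707 and numbers 1 and 4 under 0.1. Since the correlation did not pass 0.1 for every number, numbers were not taken as pairs across cultures. Counts over all genes moved from 116 to between 13 and 342 (GFP-positive), from 213 to between 39 and 650 (GFP-negative), from 1364 to between 476 and 3795 (oculomotor fractions), from 272 to between 1 and 649 (spinal fractions) and from 71 to between 10 and 453 (interaction). At the depth of the shallowest sample, 1 read of a 2 kb gene model is worth 0.668 RPKM, which limits what can be read from members below that level.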
